A study of Homo sapiens with 8 samples.

Results

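The genes described here are 35 genes of the amino acid response, among them 9 cytosolic tRNA synthetase genes and the tRNA export receptor gene XPOT. They were taken by name as targets of the transcription factor ATF4, together with ATF4 itself, and every probe set annotated with exactly 1 of these symbols was used. All 35 were measured, by 38 of the 19158 named probe sets, which cover 18404 genes. ATF4, PSPH and MTHFD2 had 2 probe sets each, and the one with the highest mean stands for the gene unless stated. RNA came from HSC39, a cell line of human gastric signet ring cell carcinoma, on 8 whole-transcript arrays of biotin-labelled sense cDNA. TRIM44, which encodes a tripartite motif protein without a RING domain, was targeted with siRNA 7 on 2 arrays and with siRNA 9 on 2 arrays. The labels give 100 nM (written nm) of TRIM44 siRNA for 48 h, and the 4 remaining arrays are of cells given a negative control siRNA. All groups were grown in the same serum-containing medium. The protocol text names the TRIM44 siRNA for every sample, also those labelled negative, so the sample labels were used, and the series counts both reagents as 1 condition with 4 biological replicates. Beyond that count, no label says whether the arrays came from separate cultures, so the spread behind each p-value may be partly technical.

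When a cell runs short of an amino acid, uncharged tRNA activates the kinase GCN2 (EIF2AK4), which phosphorylates the initiation factor eIF2. Most translation then slows, while the ATF4 mRNA is translated more, and ATF4 raises genes that import amino acids, make them and load them onto tRNA. Other eIF2 kinases, which sense unfolded protein, heme shortage or double-stranded RNA, feed into the same factor, and ATF4 works with partners of the C/EBP family at a composite DNA element.

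That element is shown here as a description of the promoters, and whether it goes with the array pattern was not tested. Genes that ran closely together below include some with a match, such as CARS1 and ASNS, and some without, such as PSAT1 and CTH. The letters TGATGNAA were searched on both strands of RefSeq promoter windows (build GRCh38.p14, 250 bases before to 50 after a gene's start). Windows were found for 30 of the 35 genes, and 12 of these genes held a match in at least 1 window, 40% of them, against 4.46% of all 27305 genes with a window. Because the genes were chosen by name as ATF4 targets, the higher share reflects that choice and is no result of these arrays. Of the 12 matches, 7 read TGATGCAA, 3 read TGATGAAA, and TGATGGAA and TGATGTAA occurred once each. The lines below give 30 bases around the match for 8 of these genes, read 5′ to 3′ on the strand that holds the motif, with the match in capitals. They include ATF3, whose array pattern differs from that of most of the genes. A match describes these letters only.
ASNS, chr7:97872458-97872487, minus strand: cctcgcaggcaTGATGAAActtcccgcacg
CHAC1, chr15:40953251-40953280, minus strand: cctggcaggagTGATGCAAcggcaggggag
SLC7A1, chr13:29595663-29595692, minus strand: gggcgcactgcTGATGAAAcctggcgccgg
CARS1, chr11:3057407-3057436, plus strand: ttcctagaatcTGATGCAAccgccgccccg
MARS1, chr12:57488053-57488082, minus strand: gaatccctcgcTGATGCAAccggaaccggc
GARS1, chr7:30594834-30594863, minus strand: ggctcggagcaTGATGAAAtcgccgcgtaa
NARS1, chr18:57621804-57621833, minus strand: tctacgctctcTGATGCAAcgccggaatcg
ATF3, chr1:212565205-212565234, plus strand: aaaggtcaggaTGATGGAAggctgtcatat

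Counted along the gene from its start, the match began at base -68 in ASNS, -209 in CHAC1, -33 in GARS1, -4 in MARS1, -2 in CARS1 and -191 in ATF3, and at base 7 in SLC7A1 and 14 in NARS1. The other 4 genes with a match were AARS1 (at -187), CEBPG (-42), FGF21 (-54) and SLC3A2 (37), so that 5 of the tRNA synthetase genes held one. The 250 bases before the start are printed for the 2 of the 12 genes with the widest range over the arrays, on the strand of the gene, again with the match in capitals; in CHAC1 the motif lies on the opposite strand, so its complement is seen.
CHAC1, chr15:40953221-40953470, plus strand: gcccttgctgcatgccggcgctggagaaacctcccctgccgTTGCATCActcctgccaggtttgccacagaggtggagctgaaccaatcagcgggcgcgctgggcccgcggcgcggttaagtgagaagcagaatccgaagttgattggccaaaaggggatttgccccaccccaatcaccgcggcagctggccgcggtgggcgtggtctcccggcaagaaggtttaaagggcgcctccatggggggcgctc
ASNS, chr7:97872409-97872658, minus strand: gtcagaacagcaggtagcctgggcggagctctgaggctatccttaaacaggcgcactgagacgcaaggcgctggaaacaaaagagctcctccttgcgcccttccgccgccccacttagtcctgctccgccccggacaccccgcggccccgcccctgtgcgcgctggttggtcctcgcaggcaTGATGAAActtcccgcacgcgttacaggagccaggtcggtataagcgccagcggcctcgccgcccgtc

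TRIM44, the targeted gene, fell with siRNA, by 0.81 on the log2 scale (SE 0.10, limma adjusted p = 0.0449 over all named probe sets). Its level was 11.09 ± 0.18 (SD, n = 4) with TRIM44 siRNA and 11.90 ± 0.11 (SD, n = 4) with negative siRNA, and a 2-sided exact permutation test gave p = 0.0286, the smallest that 70 assignments allow. With arrays left out in turn the difference was -0.87 to -0.73, and the adjusted p was 0.0306 without siRNA 7 array 2, and above the threshold, up to 0.291, without any one of the others. Array medians lay between 6.78 and 6.87. On the first principal component the siRNA 9 arrays (15.5 and 17.2) and negative array 2 (13.6) stood apart from the other 5 arrays (-11.8 to -5.57). Epithelial markers of the cell line were bright (mean levels of 10.4 to 13.1 over 7 genes), while gastric markers ran from 4.27 to 11.4 (6 genes). The mean levels of markers of other cell types ran from 4.23 to 11.53 for leukocytes (4 genes), 4.38 to 9.77 for mesenchymal cells (7) and 5.41 to 7.49 for endothelium (5). The leukocyte list held both PTPRC, at 4.11 with siRNA 7, 4.31 with siRNA 9 and 4.25 with negative siRNA, and LYZ, the lysozyme gene, at 11.41, 11.58 and 11.57, and the fibroblast gene LUM had 9.74, 9.53 and 9.90. No marker passed in any comparison. Signal over background is not given, so dim genes cannot be told from absent ones. With 2 to 4 arrays a group, precision is set by their number.

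The main feature of the 35 genes was a shared difference between arrays of the same group. For each gene the mean over 8 arrays was subtracted and the result averaged over the 35 genes. This module mean was 0.25 and -0.24 on siRNA 7 arrays 1 and 2, -0.12 and -0.20 on siRNA 9 arrays 1 and 2, and 0.26, -0.06, 0.21 and -0.10 on negative arrays 1 to 4. The siRNA 7 arrays thus lay far apart, array 1 near the highest negative array and array 2 below all negative arrays. Both siRNA 9 arrays lay below all 4 negative arrays, but array 1 (-0.12) lay close to negative array 4 (-0.10). In RNA of whole cultures, fewer responding cells and a smaller response per cell cannot be told apart. The interquartile range of levels was 3.22 on siRNA 7 array 2 and 3.27 on negative array 2, against 3.07 to 3.18 on the other arrays, and its part in the module mean was not tested.

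**Figure D1:**
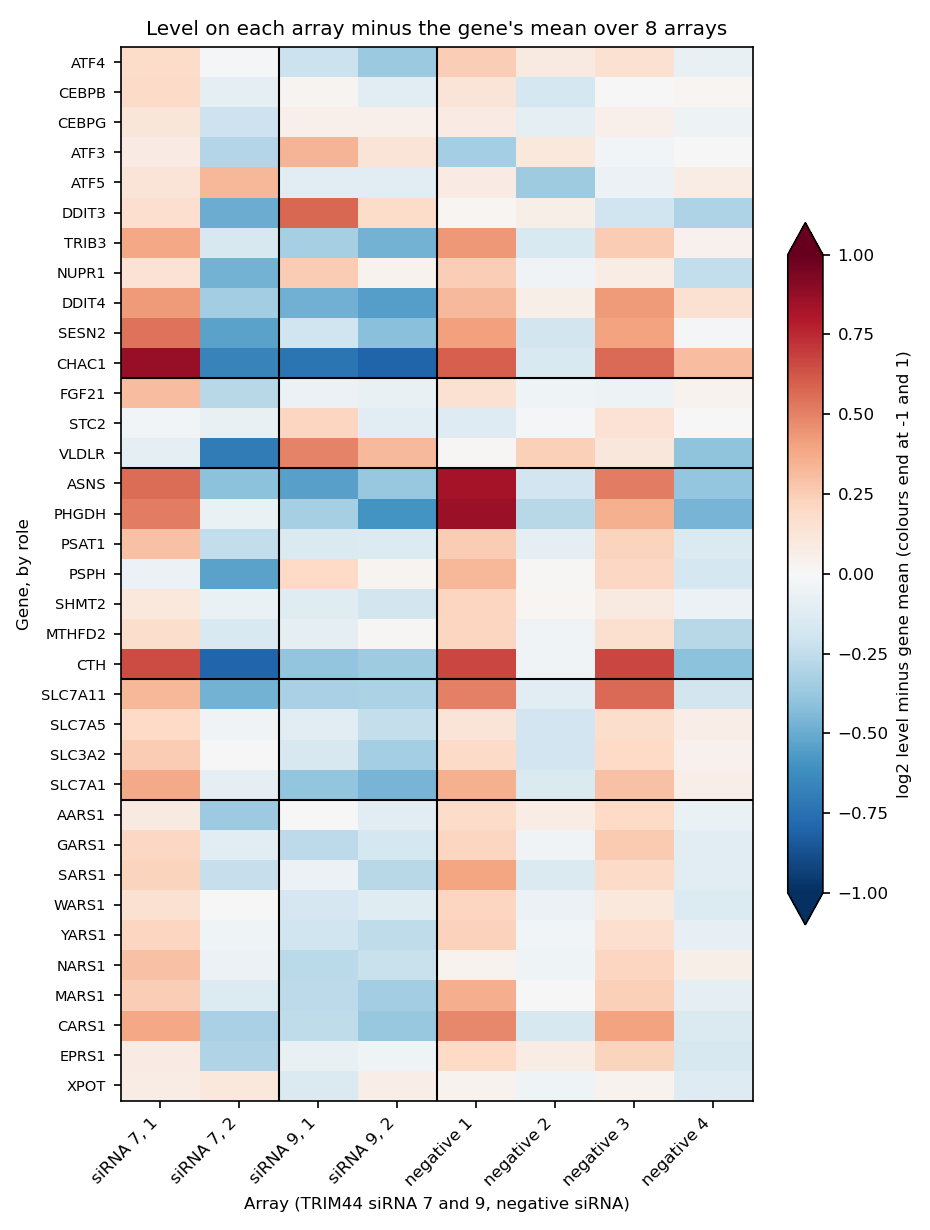
Log2 level of each of the 35 genes on each array minus the gene's mean over 8 arrays, with genes in rows grouped by role and arrays in columns (TRIM44 siRNA 7, TRIM44 siRNA 9, negative siRNA). Most rows are red on siRNA 7 array 1 and negative arrays 1 and 3 and pale or blue on the others, while ATF3, ATF5, DDIT3, STC2, VLDLR and XPOT differ from this.

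Gene by gene, siRNA 7 array 1 was higher than array 2 for 33 of 35 genes, all but ATF5 and XPOT, where 55.9% of all probe sets were higher. The median gap was 0.45 over the 35 genes and 0.03 over all probe sets, and 14 of the genes differed by more than 0.5, as did 1.23% of all probe sets in that direction. Among the negative arrays, array 1 was the highest of the 4 for 22 genes and array 3 for 10, where these arrays were highest for 19.3% and 12.7% of all probe sets. Negative array 4 was the lowest for 19 genes and array 2 for 13, against 21% and 42.1% of all probe sets. The 3 genes with another negative array highest were ATF3, DDIT3 and VLDLR. The siRNA 9 arrays differed little, with array 1 higher for 25 of 35 genes (61.9% of all probe sets), a median gap of 0.07 (0.04 over all probe sets) and 0 genes apart by more than 0.5 in that direction (0.438% of all probe sets). These gaps between arrays of 1 group have no replicates and no test.

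How closely a gene followed the others was described by the Pearson correlation of its 8 values with the mean of the other 34 genes; the points share the arrays and their scaling, so this is a description. It was above 0.9 for 12 genes. CARS1 had 0.99 (Spearman's rho 0.93, and 0.98 by Pearson without the 2 arrays farthest from the median), PSAT1 0.98, SESN2 0.97, CTH 0.97, SLC7A11 0.97 and SARS1 0.96. It was below 0.5 for 6 genes: ATF3 at -0.27, ATF5 at 0.02, STC2 at 0.02, DDIT3 at 0.04, VLDLR at 0.06 and XPOT at 0.20. Of the 12 genes above 0.9, 5 were tRNA synthetase genes (CARS1, SARS1, MARS1, GARS1 and YARS1), 4 synthesis genes (PSAT1, CTH, ASNS and SHMT2), 1 a transporter gene (SLC7A11) and 2 stress regulators (SESN2 and TRIB3).

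Wide gaps between arrays of 1 group lay in enzymes of amino acid metabolism and in the stress genes CHAC1 and SESN2, described further on. ASNS, which makes asparagine from aspartate, had 10.12 and 9.15 on the siRNA 7 arrays, 9.02 and 9.19 on the siRNA 9 arrays and 10.40, 9.37, 10.08 and 9.17 on the negative arrays. CTH, which releases cysteine from cystathionine, had 9.82 and 8.37 with siRNA 7, 8.77 and 8.81 with siRNA 9 and 9.84, 9.13, 9.83 and 8.75 with negative siRNA. For both genes negative array 4 lay close to both siRNA 9 arrays, so the siRNA arrays overlapped the negative arrays. Between the siRNA 7 arrays CTH differed 2.72-fold and ASNS 1.95-fold, and between negative arrays 1 and 4 these folds were 2.12 and 2.33.

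In serine synthesis, PHGDH and PSAT1 had siRNA 7 array 1 and negative arrays 1 and 3 as their highest arrays. So did the dimmer probe set of PSPH, while the brighter did not. PHGDH, the first enzyme of that path, had 11.92 and 11.34 with siRNA 7, 11.07 and 10.80 with siRNA 9 and 12.27, 11.12, 11.76 and 10.94 with negative siRNA, the last a 2.52-fold span between arrays 1 and 4. PSAT1, the aminotransferase that follows, had 11.82 and 11.27, then 11.38 and 11.39, then 11.78, 11.42, 11.75 and 11.38 in the same order of groups and arrays. PSPH, the phosphatase that completes serine, had 9.55 and 9.08 with siRNA 7, 9.81 and 9.64 with siRNA 9 and 9.94, 9.62, 9.82 and 9.44 with negative siRNA. By this brighter probe set PSPH differed from PHGDH and PSAT1 in that its siRNA 9 arrays lay above both siRNA 7 arrays. The dimmer probe set of PSPH had 9.35 and 8.61, 9.22 and 9.29, and 9.93, 9.29, 9.72 and 9.16. There siRNA 7 array 1 lay above both siRNA 9 arrays. The mitochondrial folate enzymes varied less: SHMT2, which splits serine into glycine and a one-carbon unit, ranged over 0.39 on the 8 arrays and MTHFD2, which oxidises that unit, over 0.49.

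The spread used to test each reagent was pooled over the 3 groups. It therefore held the gaps within the siRNA 7 and siRNA 9 pairs as well as the spread among the negative arrays. For CHAC1 the siRNA 7 arrays lay 1.54 apart, and that gap also entered its siRNA 9 test. The SD over the 4 negative arrays was 0.61 for PHGDH, larger than in 99.9% of all probe sets. ASNS stood at 0.58 and 99.8%, CTH at 0.54 and 99.7%, SLC7A11 at 0.39 and 99.1%, CHAC1 at 0.35 and 98.4%, and CARS1 at 0.34 and 98.4%. At the low end, XPOT had an SD of 0.08 and CEBPG of 0.08, larger than in 20.5% and 22.3% of probe sets.

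The amino acid transporters stood lowest with siRNA 9. SLC7A1, the carrier of arginine and lysine, had 11.27 and 10.79 with siRNA 7, 10.50 and 10.43 with siRNA 9 and 11.25, 10.75, 11.19 and 10.96 with negative siRNA. SLC7A11, the cystine carrier, had 10.94 and 10.14, then 10.29 and 10.29, then 11.11, 10.50, 11.18 and 10.43 in the same order. Both siRNA 9 arrays lay below all negative arrays for these genes, while siRNA 7 array 1 lay among or above the negative arrays and array 2 at the low end of them or below. SLC7A5, a carrier of large neutral amino acids, had 12.87 and 12.63 with siRNA 7, 12.55 and 12.43 with siRNA 9 and 12.48 to 12.85 with negative siRNA. SLC3A2, the heavy chain that both SLC7A5 and SLC7A11 need at the membrane, had 12.01 and 11.76, 11.60 and 11.42, and 11.57 to 11.96.

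Among tRNA synthetases, which join each amino acid to its tRNA, the gap between arrays was smaller but ran the same way. CARS1, for cysteine, had 9.05 and 8.34 with siRNA 7, 8.40 and 8.28 with siRNA 9 and 9.14, 8.50, 9.06 and 8.52 with negative siRNA. MARS1, for methionine, had 11.39 and 11.01, then 10.88 and 10.80, then 11.50, 11.14, 11.38 and 11.04. Of similar pattern were GARS1, for glycine, with 12.01 and 11.70, 11.55 and 11.63, and 11.69 to 12.07, and YARS1, for tyrosine, with 11.39 and 11.13, 10.98 and 10.92, and 11.10 to 11.41. All 4 had both siRNA 9 arrays below the 4 negative arrays. NARS1, for asparagine, did as well, with 11.89 and 11.54 on the siRNA 7 arrays, 11.32 and 11.37 on the siRNA 9 arrays and 11.55 to 11.81 on the negative arrays. The serine enzyme gene SARS1 (11.03 and 10.81 with siRNA 9, 10.95 to 11.48 with negative siRNA), the tryptophan enzyme gene WARS1 (10.31 and 10.36, 10.34 to 10.69), the alanine enzyme gene AARS1 (11.97 and 11.85, 11.90 to 12.16) and EPRS1, for glutamate and proline (10.95 and 10.97, 10.86 to 11.24), overlapped. XPOT, which carries tRNA out of the nucleus, stayed between 10.96 and 11.21 on all 8 arrays.

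Stress regulators split into a part that followed the module and a part that did not. CHAC1, which breaks down glutathione, had 10.85 and 9.32 with siRNA 7, 9.25 and 9.18 with siRNA 9 and 10.58, 9.83, 10.55 and 10.29 with negative siRNA. DDIT4, an inhibitor of mTORC1 also known as REDD1, had 10.45 and 9.68, then 9.54 and 9.48, then 10.35, 10.09, 10.45 and 10.18. For both genes siRNA 7 array 1 stood about level with or above the highest negative array and siRNA 7 array 2 was close to the siRNA 9 arrays, and CHAC1 differed 2.90-fold between the siRNA 7 arrays. TRIB3, a pseudokinase that restrains ATF4, had 11.05 and 10.50, 10.33 and 10.19, and 10.51 to 11.10, and SESN2, a leucine sensor upstream of mTORC1, had 9.99 and 8.91, 9.25 and 9.03, and 9.26 to 9.85.

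DDIT3, which encodes the transcription factor CHOP, went another way. It had 8.69 and 8.02 with siRNA 7, 9.09 and 8.71 with siRNA 9 and 8.54, 8.58, 8.32 and 8.21 with negative siRNA, so that both siRNA 9 arrays lay above all 6 other arrays. ATF3, an early stress transcription factor, had 7.81 and 7.43, then 8.06 and 7.85, then 7.38, 7.83, 7.70 and 7.73. VLDLR, a lipoprotein receptor that ATF4 and CHOP can raise, had 7.40 and 6.80 with siRNA 7, 8.0 and 7.82 with siRNA 9 and 7.51, 7.74, 7.62 and 7.10 with negative siRNA. These 3 genes were the ones of the 35 with both siRNA 9 arrays above all negative arrays. Of the partners of ATF4, CEBPB had 10.57 and 10.29, 10.41 and 10.27, and 10.21 to 10.51, and CEBPG ranged from 9.38 to 9.71 on the 8 arrays. ATF5 ranged from 8.04 to 8.73, with both siRNA 7 arrays (8.53 and 8.73) above the negative arrays. NUPR1, a small stress-induced nuclear protein, ranged from 9.67 to 10.39, the hormone gene STC2 from 8.90 to 9.25, and FGF21, a secreted metabolic hormone, from 5.63 to 6.22 near the dim end.

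**Figure D2:**
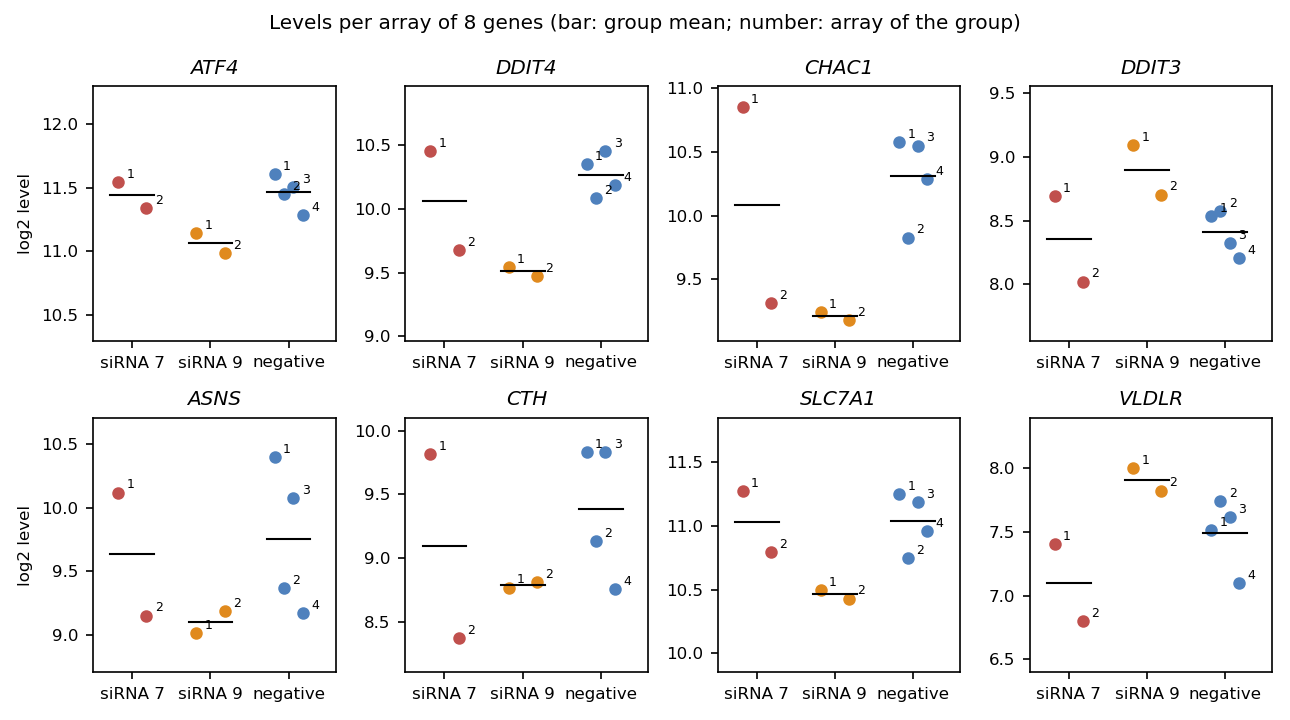
Log2 levels of 8 genes on each array, by group (TRIM44 siRNA 7, TRIM44 siRNA 9, negative siRNA), each point an array with its number in the group and bars at group means; every panel spans 2 log2 units. For CHAC1, ASNS and CTH the siRNA 7 arrays lie far apart, while for SLC7A1, DDIT4, CHAC1 and ATF4 (brighter probe set) both siRNA 9 arrays lie below all negative arrays, and for DDIT3 and VLDLR above them.

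ATF4 itself was read by 2 probe sets that did not run alike. The brighter had 11.54 and 11.34 with siRNA 7, 11.15 and 10.99 with siRNA 9 and 11.61, 11.45, 11.51 and 11.29 with negative siRNA. The dimmer had 10.11 and 9.92, then 10.20 and 10.20, then 10.16, 10.00, 10.08 and 10.19. With siRNA 9 the brighter probe set stood at -0.40 against negative siRNA (SE 0.11, adjusted p = 0.128) and the dimmer at 0.09 (adjusted p = 0.770), so no direction is given for the ATF4 transcript. ATF4 is controlled largely at translation, which these arrays do not measure.

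Taken as 1 condition, TRIM44 siRNA left no member past the threshold of 0.05 on the limma adjusted p: 0 of 35, where 0.00522% of all probe sets were called, and 1 member had an unadjusted p under 0.05 (5.43% of all probe sets). That member, DDIT4, was lower (2.5% of all probe sets), and 0 members were higher (2.93%). The difference was below 0 for 28 of the 35 genes, with a median of -0.14, where 46.3% of all probe sets were below 0 with a median of 0.01. DDIT4 stood at 9.79 ± 0.45 (SD, n = 4) with TRIM44 siRNA and 10.27 ± 0.16 (SD, n = 4) with negative siRNA, which puts it at -0.48 (SE 0.18, adjusted p = 0.884). CHAC1 had -0.66 (SE 0.31, adjusted p = 0.922), SLC7A11 had -0.39 (SE 0.20, adjusted p = 0.929) and MARS1 had -0.25 (SE 0.14, adjusted p = 0.954). The brighter ATF4 probe set had -0.21 (SE 0.12, adjusted p = 0.967) and the dimmer 0.0014. For 0 of the 35 genes did the 4 siRNA arrays lie all above or all below the negative arrays, as they did for 1.59% and 1.26% of all probe sets. By role, differences were below 0 for 7 of 7 amino acid synthesis genes (median -0.19), for 4 of 4 transporters (-0.20), 9 of 10 synthetase and export genes (-0.17), 6 of 11 stress regulators (-0.02) and 2 of 3 secreted factor and receptor genes (-0.0016). Leaving out siRNA 7 array 1 put the median at -0.24, and leaving out negative array 1 put it at -0.08.

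Against negative siRNA, siRNA 7 alone called 0 of 35 genes in limma (0.0679% of all probe sets), with 2 members at an unadjusted p under 0.05 (7.46% of all probe sets), PSPH lower (4.66%) and ATF5 higher (2.81%). The median difference was -0.04, with 26 genes below 0 (50.7% of all probe sets), but this value depended on which siRNA 7 array was used. Without array 1 it was -0.26 with 33 genes below 0, and without array 2 it was 0.16 with 5 genes below 0; without negative array 1, 14 genes were below 0. PSPH had -0.39 (SE 0.16, adjusted p = 0.575), VLDLR -0.39 (SE 0.19, adjusted p = 0.694), ATF5 0.30 (SE 0.13, adjusted p = 0.613) and AARS1 -0.23 (SE 0.13, adjusted p = 0.786). ATF4 had -0.02 by its brighter probe set (SE 0.11, adjusted p = 0.998) and -0.09 by the dimmer. ATF5 and XPOT had both siRNA 7 arrays above all negative arrays (6.38% of all probe sets), and no gene of the 35 had both below (7.99%).

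With siRNA 9, none of the 35 genes passed the adjusted threshold in limma (0 called, 0.924% of all probe sets). At an unadjusted p under 0.05 there were 12 genes (13.6% of all probe sets), of which 10 were lower, 28.6% of the 35 against 5.56% of all probe sets, and 2, DDIT3 and VLDLR, were higher, 5.71% against 8.05%. Both siRNA 9 arrays lay below all 4 negative arrays for 14 genes, 40% of the 35, against 9.23% of all probe sets, and above them for 3, which is 8.57% against 13.4%. The 14 were ATF4 (by its brighter probe set alone), TRIB3, DDIT4, SESN2, CHAC1, FGF21, SHMT2, SLC7A11, SLC7A1, GARS1, YARS1, NARS1, MARS1 and CARS1. Over the arrays, 20 of the 35 genes correlated above 0.8 with the mean of the others. The counts of genes are therefore not independent and rest on 2 siRNA 9 arrays. The median difference was -0.22, with 28 genes below 0 (43.5% of all probe sets, whose median was 0.02). Against the same negative arrays, siRNA 7 had a median of -0.04 with both of its arrays and of -0.26 without array 1. By role the medians were -0.41 for transporters, with 4 of 4 below 0, -0.28 for synthetase and export genes, with 10 of 10, -0.22 for amino acid synthesis, with 6 of 7, -0.04 for stress regulators, with 7 of 11, and 0.05 for secreted factors and the receptor, with 1 of 3 below 0. The synthesis gene not below 0 was PSPH, whose probe sets disagreed in sign, at 0.02 by the brighter and -0.26 by the dimmer.

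DDIT4 stood at 59.1% of its level with negative siRNA on the siRNA 9 arrays, that is -0.76 in log2 (SE 0.18, adjusted p = 0.0748). SLC7A1 had -0.57 (SE 0.16, adjusted p = 0.119) and CHAC1 had -1.10 (SE 0.33, adjusted p = 0.154, 95% interval -1.81 to -0.39). Which genes passed changed with the setting. Without negative array 2, limma called TRIB3, DDIT4, CHAC1 and SLC7A1. With only the arrays compared in the fit, it called DDIT4 and CHAC1 (adjusted p = 0.0165 and 0.0229). Leaving out either siRNA 7 array gave that same test and is no further support, since 1 siRNA 7 array adds no spread to the fit. With array weights 16 of the 35 passed, 15 of them lower and DDIT3 higher. Calls among all 19158 named probe sets rose from 177 to 1067 without negative array 2 and to 2082 with array weights. With only the arrays compared they fell to 157.

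**Figure D3:**
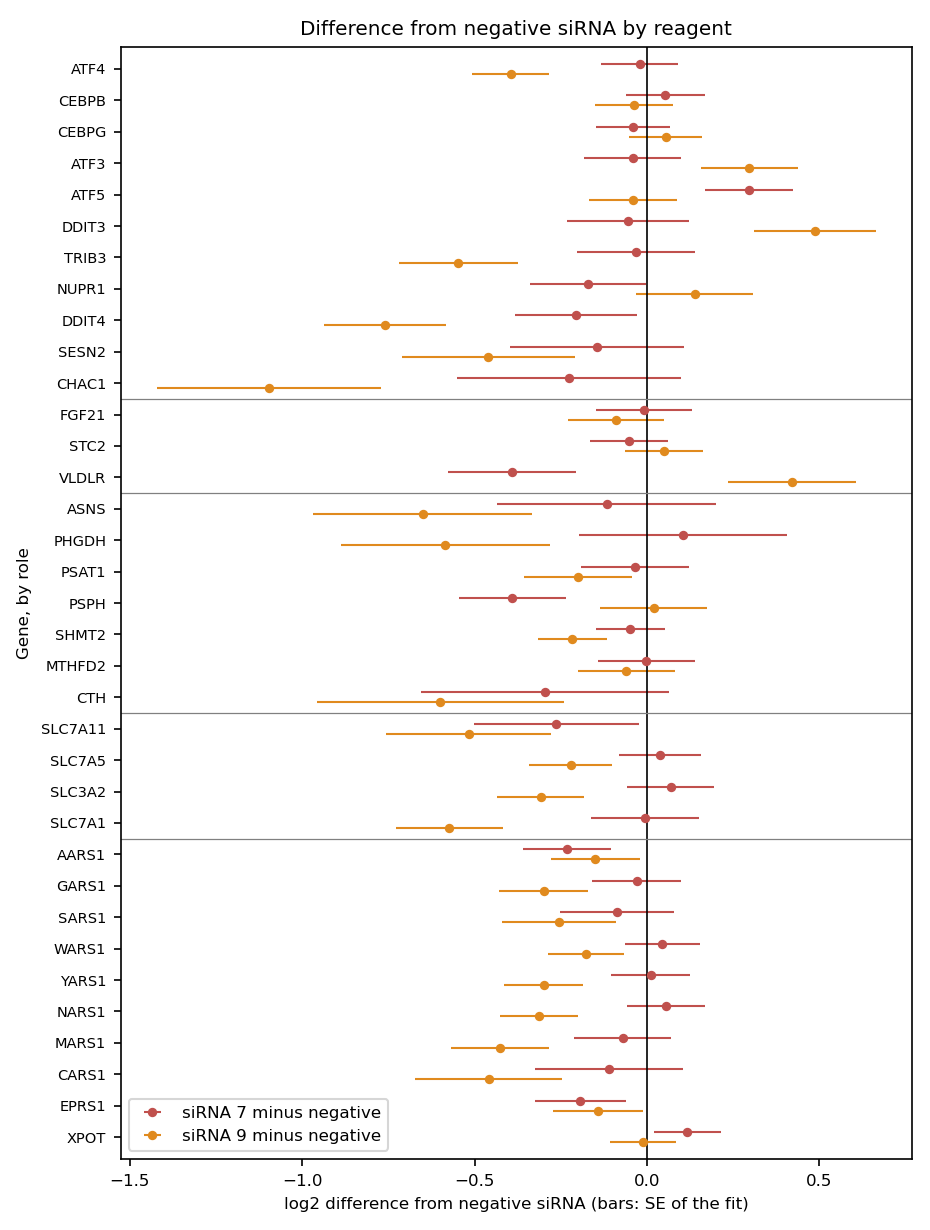
Log2 difference from negative siRNA of each of the 35 genes for TRIM44 siRNA 7 (2 arrays) and TRIM44 siRNA 9 (2 arrays) against 4 negative arrays, with the SE of the limma fit as bars and genes grouped by role. The siRNA 9 points lie left of 0 for all 4 transporters and all 10 synthetase and export genes, with CHAC1 farthest left at -1.10, and right of 0 for DDIT3 and VLDLR.

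Because both reagents share the negative arrays, their differences are given side by side and were compared directly only between the 4 siRNA arrays. In that comparison siRNA 9 against siRNA 7 called 0 of 35 genes in limma (2.23% of all probe sets), with 12 at an unadjusted p under 0.05 (15.7% of all probe sets), 9 lower (6.15%) and 3 higher (9.58%). VLDLR was at 0.81 (SE 0.21, adjusted p = 0.0749), with levels of 8.0 and 7.82 for siRNA 9 and 7.40 and 6.80 for siRNA 7. SLC7A1 had -0.57 (SE 0.18, adjusted p = 0.135), NARS1 had -0.37 (SE 0.13, adjusted p = 0.182). The brighter ATF4 probe set had -0.37 (SE 0.13, adjusted p = 0.165) and the dimmer 0.19 (adjusted p = 0.477). VLDLR passed when negative array 2 (adjusted p = 0.0370) or 4 (0.0396) or siRNA 7 array 1 (difference 1.11, 0.0422) was left out, and DDIT4 and CHAC1 passed without siRNA 7 array 2. Both siRNA 9 arrays lay below both siRNA 7 arrays for 16 of the genes, 45.7% against 19.9% of all probe sets, and above them for 4, 11.4% against 28.7%. ATF4 was among the 16 and PSPH among the 4 by the brighter probe set alone. By the dimmer ATF4 probe set both siRNA 9 arrays lay above both siRNA 7 arrays. Here too many genes moved together, so the counts are not independent. The median difference was -0.25, with 26 genes below 0 (43.3% of all probe sets). Without siRNA 7 array 1 the median was 0.01 with 17 below 0.

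Other genes of the pathway were taken from 6 lists of related genes. The 14 other cytosolic synthetase and complex genes had 11 measured, among them IARS1, LARS1 and TARS1, and their list mean stayed within 0.06 of 0 on all arrays (0.03 and 0.02 for siRNA 7, -0.05 and -0.06 for siRNA 9, and -0.05 to 0.05 for negative siRNA). The list mean of 16 mitochondrial synthetase genes lay between -0.03 and 0.02. Other amino acid transporters, 17 genes, had 0.10 and 0.01 with siRNA 7, -0.16 and -0.16 with siRNA 9 and 0.11, -0.06, 0.13 and 0.03 with negative siRNA. Other synthesis genes (14 measured) and other targets of ATF4 and CHOP (23 measured) had means between -0.09 and 0.07 and between -0.14 and 0.14. Each of these list means covered a narrower range over the arrays than the mean of the 35 genes. For both reagents together limma called 0 of the 96 genes of the 6 lists (0.00522% of all probe sets). At an unadjusted p under 0.05 there was 1 gene, which is 1.04% against 5.43% of all probe sets. For siRNA 7 limma called 0 (0.0679% of all probe sets), with 5 at an unadjusted p under 0.05 (5.21% against 7.46%). With siRNA 9 it called 1, which is 1.04% against 0.924% of all probe sets, and 16 had an unadjusted p under 0.05 (16.7% against 13.6%). Between the reagents it called 3, which is 3.12% against 2.23%, with 16 at an unadjusted p under 0.05 (16.7% against 15.7%). The shares with siRNA 9 and between the reagents are near those over all probe sets, while the unadjusted share for both reagents together was lower. The called genes are given below by name.

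**Figure D4:**
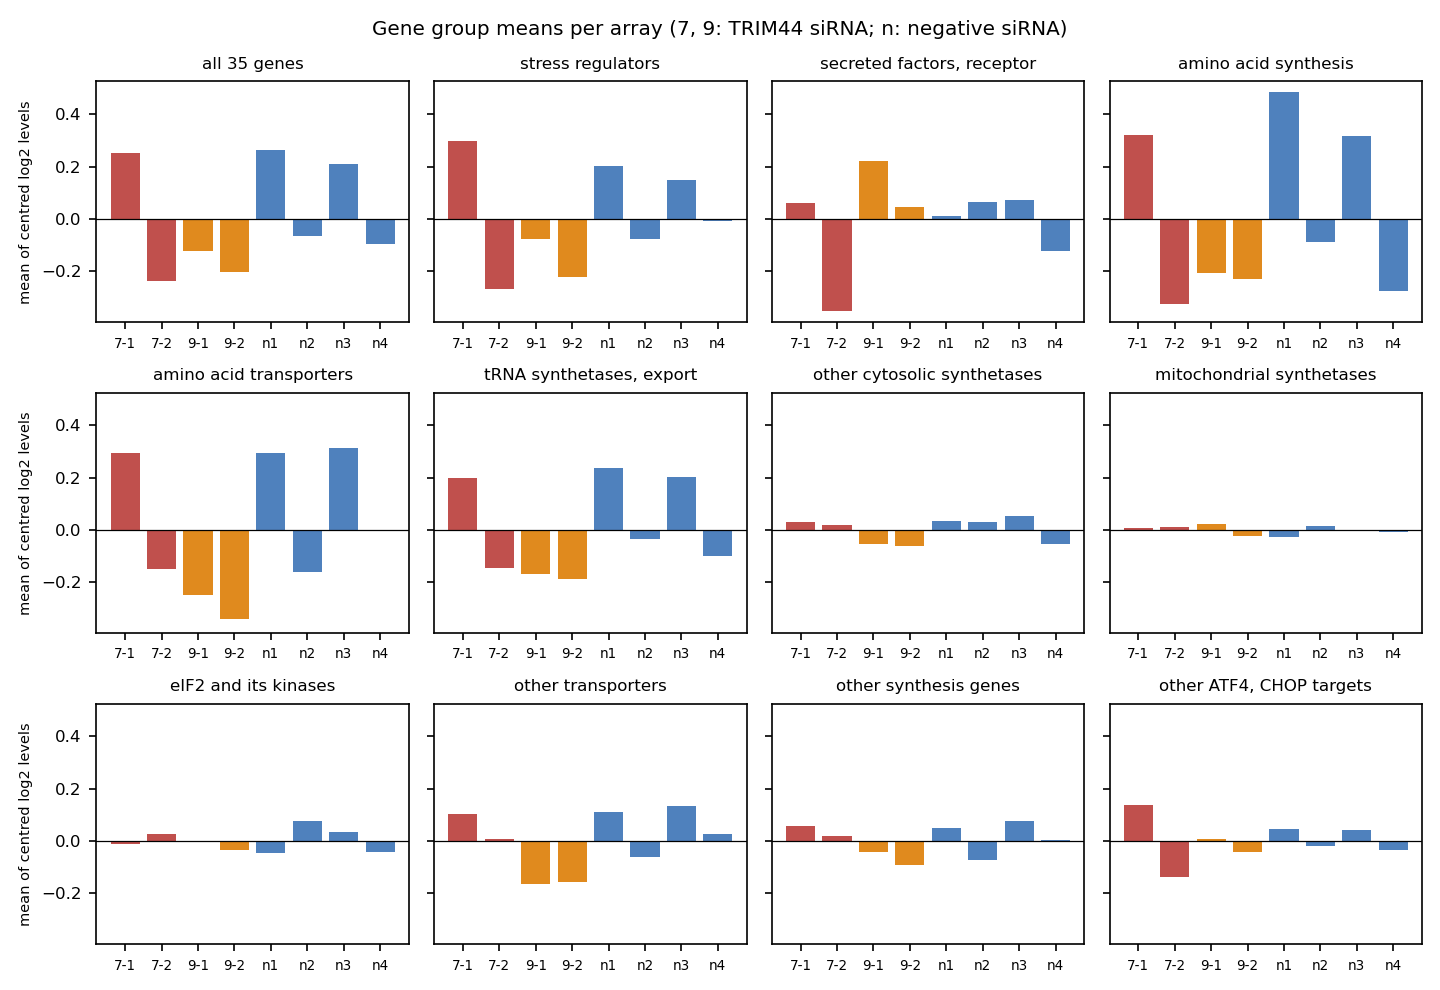
Mean over the genes of each group of log2 levels centred on each gene's mean, per array (7-1 to 9-2, TRIM44 siRNA 7 and 9; n1 to n4, negative siRNA), for all 35 genes, their 5 roles and 6 other lists. The bars of amino acid synthesis reach 0.48 on negative array 1 and -0.32 on siRNA 7 array 2, while those of mitochondrial synthetases stay between -0.03 and 0.02.

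Upstream of ATF4, the list of eIF2, its kinases, its exchange factor and its phosphatase subunits had 16 genes measured, and 1 of them passed with siRNA 9. GCN1, which GCN2 needs in order to sense uncharged tRNA, fell by 0.46 on the log2 scale (SE 0.09, limma adjusted p = 0.0388), with 10.29 and 10.15 on the siRNA 9 arrays against 10.64, 10.75, 10.67 and 10.63 on the negative arrays. It was also lower with siRNA 9 than with siRNA 7, at 10.67 and 10.72 (difference -0.48, SE 0.10, adjusted p = 0.0356). The call against negative siRNA stayed without negative array 2 (adjusted p = 0.0172) and ended with each of the other arrays left out. The adjusted p was then 0.0541 for either siRNA 7 array, 0.278 for siRNA 9 array 1 and 0.461 for siRNA 9 array 2. It was 0.0976 for negative array 1, 0.139 for negative array 3 and 0.0544 for negative array 4. The difference itself was -0.52 to -0.39. With all arrays the call also ended when every probe set was tested (0.125) and with the replicate block (0.163). With only the arrays compared (0.0541) the test was the same as with either siRNA 7 array left out. The call stayed with quantile normalization (0.0291), median centring (0.0424), the brighter 50% of probe sets (0.013), the trended and robust prior (0.0048) and array weights (0.0027). The GCN2 gene, EIF2AK4, had 9.03 and 8.87 with siRNA 9 and 9.00 to 9.16 with negative siRNA.

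Between the reagents, GCN1 and 2 further genes passed. TNFRSF10B, a death receptor gene raised by CHOP, was lower with siRNA 9 (9.05 and 9.02) than with siRNA 7 (9.67 and 9.49), a difference of -0.54 (SE 0.11, adjusted p = 0.0267). SLC15A4, a lysosomal histidine and peptide carrier gene, had 9.08 and 9.21 with siRNA 9 and 9.55 and 9.75 with siRNA 7, a difference of -0.51 (SE 0.12, adjusted p = 0.0482). Their calls, like that of GCN1, ended with either siRNA 9 or either siRNA 7 array left out (adjusted p = 0.0775 to 0.340) and without negative array 3, and that of SLC15A4 also without negative arrays 1 and 4, that of GCN1 without negative array 1. All 3 also ended when every probe set was tested (0.0906 to 0.131), that of GCN1 with the replicate block (0.0600) and that of SLC15A4 after median centring (0.0561).

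The genes outside the 35 whose 8 values ran most like the module mean were then listed, among 9271 genes in the brighter 50% of probe sets, as a description. INHBE, which encodes an inhibin subunit and was on the list of other ATF4 targets, came first with Pearson's r of 0.99 (Spearman's rho 0.98, and r of 0.99 without the 2 arrays farthest from the median of the module mean). It had 9.16 and 7.16 on the siRNA 7 arrays, 7.69 and 7.51 on the siRNA 9 arrays and 8.98, 8.01, 8.86 and 7.91 on the negative arrays, a range of 2.00. FUT1, a fucosyltransferase gene, had 0.99, and CLIC4 had 0.98. SLC43A1, a carrier of branched-chain amino acids, and PCK2, the mitochondrial phosphoenolpyruvate carboxykinase gene, had 0.96 each, and both were also on the lists of related genes. ACSM3, TFDP2 and FOXP1 had 0.96, the last 2 over ranges of 0.30 and 0.31. In all, 48 of the 9271 genes (0.518%) were above 0.9.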

How the data were processed

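The authors deposited a log2 level for each of 32321 probe sets on 8 arrays. The submitters' processing notes name limma, while how probes were summarised and background corrected is not given in the sources used here. Sorted values of the arrays differed by at most 0.180 at the same rank. Names came from the platform annotation, updated by gene ID through RefSeq (19128 of 19158 found, 0 changed); 1388 probe sets with several symbols and 11775 with none were left out. Groups followed the sample titles. Differences were tested with limma 3.58.1 in R 4.3.3 (lmFit, eBayes, 2-sided, Benjamini-Hochberg over 19158 probe sets, threshold 0.05): 2 groups for both reagents together, and 3 group means for each reagent and for siRNA 9 against siRNA 7. The fits were tested on simulated data. The members, the lists and the tests were chosen with earlier results of these data known. Differences with p were given for ATF4 and the 4 members of smallest unadjusted p per comparison, and of other lists for genes past the threshold. Alternatives were quantile normalization, median centring, the brighter 50% of probe sets, all probe sets, array weights, a trended and robust prior, a block for the replicate number, other fits and each array left out.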

Additional observations from a re-analysis of the deposited data

Results flagged for a closer look

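Within groups of 4 arrays, 4 of 70 sets of values (35 genes, TRIM44 siRNA and negative siRNA) had 1 array whose gap to the nearest other was larger, relative to the group's range, than Dixon's critical value at 95% allows; chance alone flags about 1 in 20. With both reagents taken as 1 group, siRNA 7 array 1 stood above the other 3 TRIM44 siRNA arrays for CHAC1 (10.85), ASNS (10.12) and CARS1 (9.05). XPOT was low on siRNA 9 array 1 (10.96).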

How the results depend on the processing

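The TRIM44 call ended after median centring (-0.81, limma adjusted p = 0.108), with all probe sets (-0.81, 0.442), with siRNA identity as a random block (-0.81, 0.108) and with the replicate block (-0.88, 0.998). It stayed with quantile normalization (-0.80, 0.0299), the brighter 50% of probe sets (0.0339), 3 group means (0.0423), the trended and robust prior (0.0037) and array weights (0.0027). With arrays left out the difference was -0.87 to -0.73. Members called by limma for siRNA 9 against negative siRNA numbered 1 with the brighter 50% of probe sets (DDIT4), 1 with the trended prior (ATF4), 16 with array weights, 2 with only the arrays compared, and 0 to 4 with arrays left out. For siRNA 9 against siRNA 7 they numbered 2 with array weights, 1 (VLDLR) with the replicate block or only the arrays compared, and 0 to 2 with arrays left out. With arrays left out, the siRNA 7 median ran from -0.26 to 0.16 with 5 to 33 genes below 0, that of siRNA 9 against siRNA 7 from -0.40 to 0.0071 with 17 to 29 below 0, and ATF4 with siRNA 7 from -0.12 to 0.079. The siRNA 9 median stayed within -0.30 and -0.17 and that of both reagents within -0.24 and -0.08. The cause of these changes was not tested. Counts over all named probe sets, in the order of both reagents, siRNA 7, siRNA 9 and siRNA 9 against siRNA 7, were 1, 13, 177 and 428, against 0, 0, 28 and 8 with all probe sets, 2, 64, 390 and 703 with the brighter 50%, 2, 83, 405 and 792 with the trended prior and 33, 70, 2082 and 1063 with array weights. The replicate block called 0, 0 and 44 for the first 3. Equal replicate numbers name arrays, and the gap between arrays 1 and 2 correlated across probe sets at 0.33 for siRNA 7 with negative siRNA, 0.11 for siRNA 9 with negative siRNA and 0.02 between the reagents. The module mean per array moved by less than its SD over the negative arrays, 0.18, under quantile normalization, median centring and with all probe sets of a gene averaged. That limit is wider than the gap between siRNA 9 array 1 (-0.12) and negative array 4 (-0.10), so it cannot show whether their order held. The number of arrays limits all of these values, and signal over background is not given.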
